A study of Mus musculus with 4 samples.

Results

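Glutathione peroxidases, superoxide dismutases and catalase are the enzymes that remove superoxide and peroxides. The 9 genes described here are Gpx1, Gpx3, Gpx4, Gpx7, Gpx8, Sod1, Sod2, Sod3 and Cat. They were chosen by name, with earlier results of these arrays in view, and every probe set whose only platform gene symbol was one of these names was taken. This gave 19 probe sets, of 34945 with 1 symbol and 45037 in all once array controls were removed. The choice used no threshold on a value.

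The cells were immortalized brown preadipocytes, which can mature into brown fat cells, from mice of a mixed C57/BL6-129 strain, and all of them carried floxed alleles of G9a, a histone H3 lysine 9 methyltransferase. Cells that received the vector are labelled wild type and served as controls (n = 2 arrays). Cells that received Cre are labelled G9a knock out (n = 2 arrays). Arrays were numbered 1 and 2 within each group, total RNA was hybridized, and how Cre was delivered is not given in the sources used here. Separate cultures are not mentioned in the labels, so p-values measure only the spread between these arrays.

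Superoxide dismutases turn superoxide into hydrogen peroxide. Sod1 encodes the copper and zinc enzyme of the cytosol, Sod2 the manganese enzyme of mitochondria and Sod3 the copper and zinc enzyme that is secreted and binds the extracellular matrix. Catalase, an enzyme of peroxisomes, splits hydrogen peroxide into water and oxygen, and glutathione peroxidases reduce peroxides with electrons that usually come from glutathione. Gpx1 and Gpx4 encode intracellular selenoproteins, of which Gpx4 acts on lipid peroxides in membranes, and Gpx3 encodes the secreted selenoprotein of plasma, which is also made in fat tissue. Gpx7 and Gpx8 encode enzymes of the endoplasmic reticulum that carry cysteine in place of selenocysteine.

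Ehmt2, the gene of G9a, read 2682 and 2688 signal units in vector arrays 1 and 2 and 953 and 912 in Cre arrays 1 and 2. A signal unit is the deposited MAS5 intensity, scaled so that the trimmed mean of each array was 500. The replicate numbers differed in sex-linked transcripts: Xist read 9810 or more in both arrays of number 1 and 58 or less in both of number 2. Across the tested probe sets, which are not independent replicates, the step from array 1 to array 2 in vector cells correlated with that in Cre cells at r = 0.603. On those grounds arrays of one number were read as a pair. Defining markers of endothelium (Pecam1 and Cdh5), leukocytes (Ptprc), hepatocytes (Alb) and mature adipocytes (Adipoq) all lay below the level filter, which kept probe sets at or above the 50th percentile of mean level. Other markers of these lists passed it, the leukocyte markers Csf1r and Cd68 and the adipocyte marker Lpl. Of the 6 preadipocyte or mesenchymal markers with a probe set, all 6 lay above it. In the Cre array of both pairs 1 was higher (Pdgfrb) and 3 lower (Pdgfra, Cd34 and Dlk1). Among all genes above the filter, 32.8% were higher and 30.2% lower in both pairs. Dlk1 read 5421 and 5238 in the vector arrays and 1690 and 4882 in the Cre arrays. Pdgfrb read 4527 and 3123 against 5669 and 4358. The summed signal of the 6 was 10856 and 11718 in vector arrays 1 and 2 and 8186 and 12083 in Cre arrays.

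The 2 secreted enzymes stood at the top of the 9 genes in the mean difference between Cre and vector cells. Gpx3 was 5.99-fold higher and Sod3 1.91-fold higher, while the 7 other genes lay between 0.012 and 0.36 above the vector level on the log2 scale. For Sod3 this order held within number 1 only. Within number 2 its log2 difference, 0.18, lay below those of Gpx7 (0.54), Gpx4 (0.24) and Gpx1 (0.22). Since the genes were chosen with this contrast known, their differences between genotypes are given as a description and were not tested. All log2 values are of log2(signal + 16) after quantile normalization, which understates differences of dim genes. Each SE of a difference between genotypes is the moderated limma value, which draws on the spread shared across probe sets. It comes from the model without pairing, so it includes the spread between the replicate numbers. All 9 genes passed the level filter through their brightest probe set, as did 18 of the 19 probe sets.

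The promoter windows of Gpx3 and Gpx1 are shown because these paralogues, secreted and cytosolic, lay far apart in that difference. Both are the 250 bases before the annotated start in RefSeq, build GRCm38.p6, on the plus strand, at chr11:54902604-54902853 for Gpx3 and chr9:108338830-108339079 for Gpx1. Capitals mark matches to the motifs named below.
Gpx3: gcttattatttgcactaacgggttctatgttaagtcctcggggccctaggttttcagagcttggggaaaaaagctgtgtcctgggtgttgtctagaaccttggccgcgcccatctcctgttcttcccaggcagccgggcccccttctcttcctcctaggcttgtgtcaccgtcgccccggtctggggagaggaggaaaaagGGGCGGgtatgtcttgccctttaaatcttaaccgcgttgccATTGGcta
Gpx1: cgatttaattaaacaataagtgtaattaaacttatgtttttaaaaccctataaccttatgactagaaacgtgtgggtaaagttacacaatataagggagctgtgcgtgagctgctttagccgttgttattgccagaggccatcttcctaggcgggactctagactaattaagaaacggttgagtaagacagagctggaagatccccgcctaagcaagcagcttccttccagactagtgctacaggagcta

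Both strands were searched for 5 motifs. These were the GC box GGGCGG, the CCAAT box CCAAT, the TATA box TATAAA, the AP-1 site TGANTCA and the antioxidant response element core TGACNNNGC, of which the AP-1 and antioxidant motifs can overlap. The Gpx3 window held a GC box whose first base lay 49 bases before the start and a CCAAT box, on the minus strand, 8 bases before it. None of the 5 motifs was found in the Gpx1 window. Over 32851 promoter windows of the same length, 32.7% held the GC box, 33.85% the CCAAT box, 12.4% the TATA box, 6.75% the AP-1 site and 10.2% the antioxidant core. Windows were found for 8 of the 9 genes (11 windows), and Sod3 was not matched. Of these 8 genes, 6 had a GC box and 5 a CCAAT box. Sod1 alone of the 8 had a TATA box and the antioxidant core. A match is a description of the letters and no evidence of a bound factor.

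Gpx3 read 185 and 92.9 signal units in vector arrays 1 and 2 and 829 and 962 in Cre arrays 1 and 2. Both Cre arrays lay above both vector arrays. The log2 difference was 2.58 ± 0.29 (SE, n = 2 against 2). Within number 1 it was 2.16, a 4.48-fold difference, and within number 2 it was 3.0, an 8.02-fold difference. The larger value in number 2 came with a lower vector reading and a higher Cre reading than in number 1. With a pseudocount of 64 in place of 16 the difference was 2.26. Among the 11079 genes tested, 0.37% were at least 4-fold higher in Cre cells, and Gpx3 was 1 of these 41 genes.

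Sod3 read 192 and 141 signal units in vector arrays 1 and 2 and 622 and 169 in Cre arrays 1 and 2. Cre array 1 stood apart, while Cre array 2 lay below vector array 1 in the deposited signals. After quantile normalization both Cre arrays lay above both vector arrays. The log2 difference was 0.93 ± 0.52 (SE, n = 2 against 2), made of 1.68 within number 1 and 0.18 within number 2, or 3.20-fold and 1.14-fold. Without Cre array 1 it was 0.11, and without Cre array 2 it was 1.75. A second probe set read 88.1 and 59 in the vector arrays and 409 and 97.3 in the Cre arrays, with differences of 2.03 and 0.52 within numbers 1 and 2. Both probe sets therefore placed most of the Sod3 difference in number 1. The difference between the numbers in the effect of Cre could not be tested, because a model holding it has no residual degrees of freedom.

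**Figure D1:**
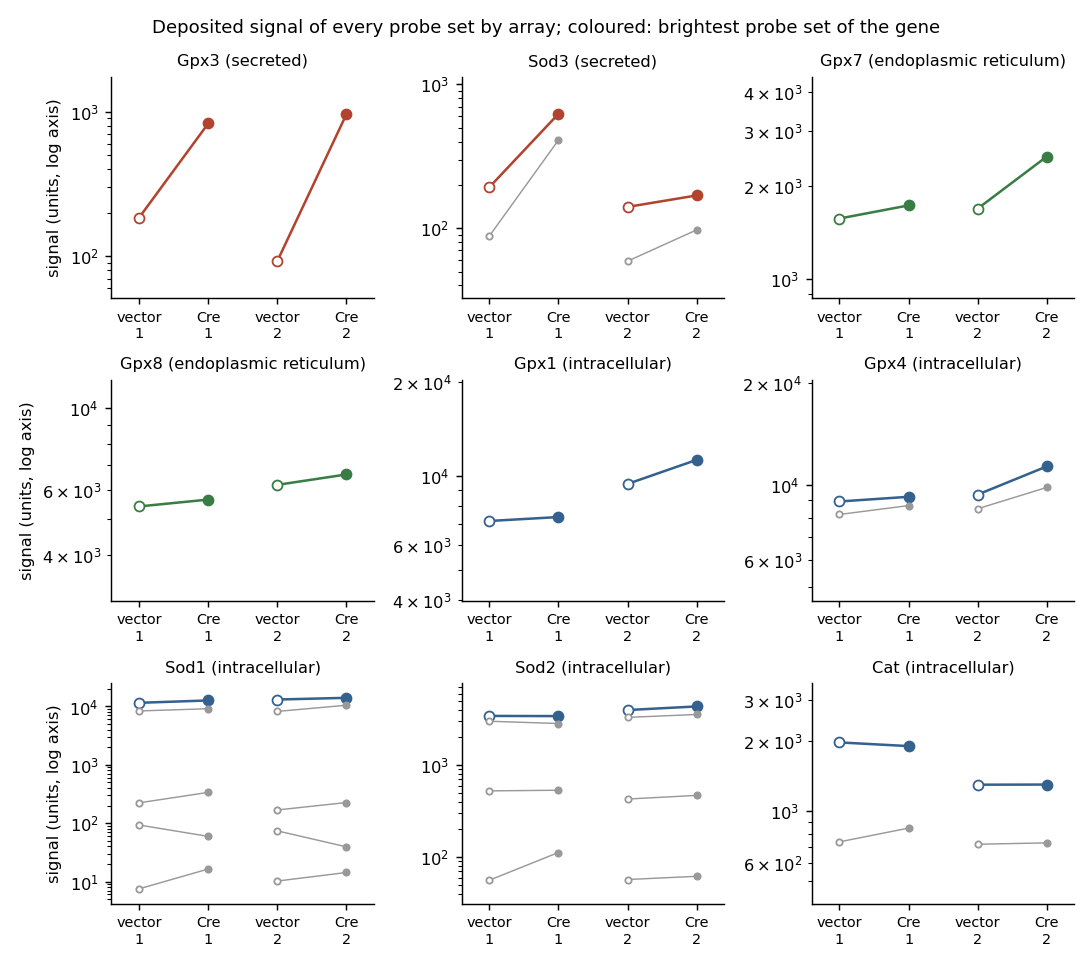
Deposited signal (log axis, signal units) of each of the 19 probe sets in the 4 arrays, 1 panel per gene. Coloured points are the brightest probe set of the gene and grey points the others, open points are vector arrays and filled points Cre arrays, and lines join arrays of the same number. Gpx3 is at 829 and 962 units in the Cre arrays and at 185 and 92.9 in the vector arrays, Sod3 is high in Cre array 1 only, Gpx7 is highest in Cre array 2, and the brightest probe sets of Gpx1 and Cat differ more between the numbers than between the groups.

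Of the endoplasmic reticulum enzymes, Gpx8 differed little between genotypes, and Gpx7 differed more, mainly within number 2. Gpx7 read 1568 and 1687 signal units in vector arrays 1 and 2 and 1728 and 2480.3 in Cre arrays 1 and 2, with Cre array 2 the highest and no overlap of the groups. Its log2 difference was 0.36 ± 0.24 (SE, n = 2 against 2), 0.18 within number 1 and 0.54 within number 2. It was 0.59 without Cre array 1 and 0.12 without Cre array 2. Gpx8, which encodes a membrane-anchored enzyme of the same compartment, read 5415 and 6194 in the vector arrays and 5651 and 6609 in the Cre arrays. Its groups overlapped, both arrays of number 2 being above both of number 1, and the difference was 0.062 ± 0.13. The 2 pairs gave 0.056 and 0.068.

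Among the intracellular glutathione peroxidases, Gpx1 read 7172 and 9420 signal units in vector arrays 1 and 2 and 7382 and 11244 in Cre arrays 1 and 2. The arrays of number 2 were the high ones in both groups. The log2 difference between genotypes was 0.12 ± 0.20 (SE, n = 2 against 2). Gpx4 read 8937 and 9368 in the vector arrays and 9227 and 11346 in the Cre arrays in deposited signals. Cre array 2 was the highest, and the groups overlapped in these signals but not after quantile normalization. The log2 difference was 0.12 ± 0.12, made of 0.0024 within number 1 and 0.24 within number 2. It was 0.22 without Cre array 1 and 0.028 without Cre array 2. A second Gpx4 probe set, of the _x_at kind that can match other transcripts, gave 0.037 and 0.17.

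Sod1 was close to level over the 4 arrays, with 11540.2 and 13143 signal units in vector arrays 1 and 2 and 12675 and 14049.9 in Cre arrays 1 and 2. The groups overlapped, and the log2 difference was 0.032 ± 0.10 (SE, n = 2 against 2). The probe sets of Sod1 disagreed. Of its other 4, the bright one (1459976_s_at) differed by 0.20 and a dimmer one (1435304_at, 169 to 337 units) by 0.43. A probe set near the level filter (1440222_at) differed the other way, with 93 and 73.8 units in the vector arrays, 59.4 and 39.3 in the Cre arrays and differences of -0.70 and -0.74 within the pairs. The last (1447761_x_at, 7.5 to 16.4 units) lay below the filter. Which part of the gene each probe set matches was not analysed here.

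Sod2 read 3426 and 3968 signal units in vector arrays 1 and 2 and 3409.8 and 4343 in Cre arrays 1 and 2, with overlapping groups and a log2 difference of 0.068 ± 0.18 (SE, n = 2 against 2). A second bright probe set gave 0.016 and a dimmer one 0.072. The dimmest (1417194_at) read 112 in Cre array 1 and 56.2 to 62 in the others, and differed by 0.69 within number 1 and 0.044 within number 2. Cat read 1976 and 1301 in the vector arrays and 1905 and 1303 in the Cre arrays. Its groups overlapped, the arrays of number 1 were the high ones, and the difference was 0.012 ± 0.31. A second Cat probe set read 740 and 722.5 in the vector arrays and 847 and 732 in the Cre arrays, a difference of 0.12.

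**Figure D2:**
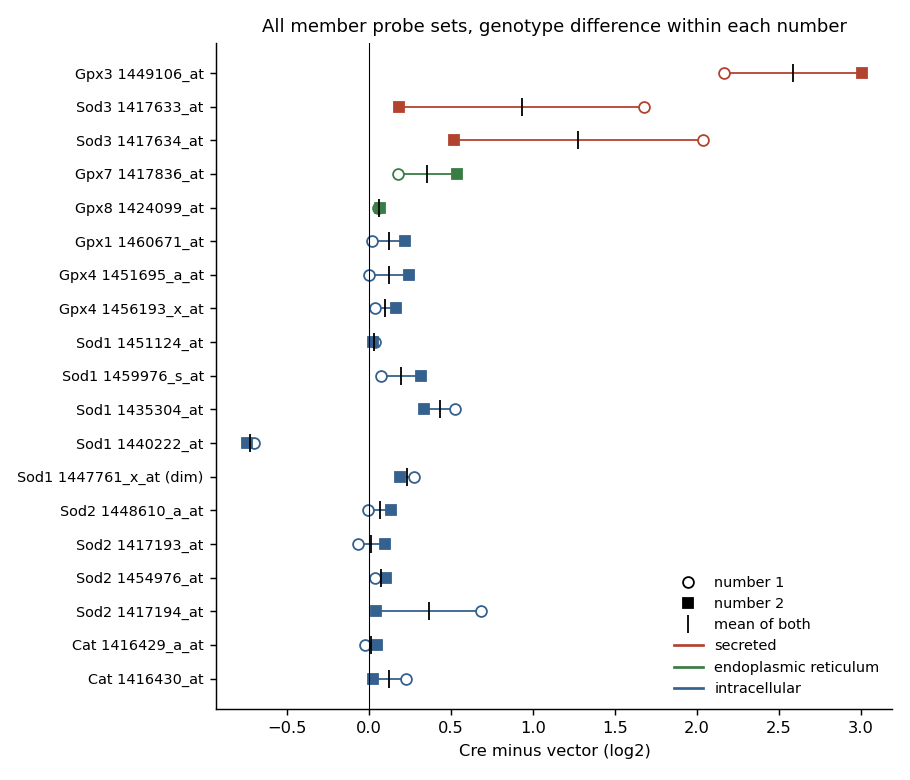
Log2 difference of Cre minus vector for all 19 probe sets, within number 1 (open circles), within number 2 (squares) and as the mean of both (bars). The secreted genes reach 3.0 for Gpx3 in number 2 and 2.03 for the second Sod3 probe set in number 1, and 1 Sod1 probe set is at -0.70 and -0.74.

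Over the 9 genes, 7 were higher in the Cre array of both pairs and 0 were lower in both, and Sod2 and Cat were mixed. Of the 7, Gpx4, Gpx1 and Sod1 were higher by only 0.0024, 0.022 and 0.024 in their smaller pair. Among all genes tested, 32.8% were higher in both pairs and 30.2% lower in both. After quantile normalization both Cre arrays lay above both vector arrays for 4 of the 9 genes (Gpx3, Sod3, Gpx7 and Gpx4), and for 17.5% of all genes tested. The median log2 difference was 0.12 over the 9 genes, 0.068 over the 7 that are not secreted and 0.0073 over all genes tested. The 2 secreted genes differed by 2.58 (Gpx3) and 0.93 (Sod3). Of these, Sod3 was at 1.68 within number 1 and 0.18 within number 2. With the scaling as deposited, in place of quantile normalization, 7 of the 9 genes were again higher in both pairs. Among all genes tested 33.9% were higher in both pairs under that scaling. The mean difference of Cat was then -0.025, and the groups of Sod3 and Gpx4 overlapped in the deposited signals. Over the 19 probe sets, 15 were higher in both pairs and 1 lower, where 27.9% and 33.2% of all probe sets tested were. More cells making a transcript and more transcript per cell cannot be told apart in these total RNA samples.

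**Figure D3:**
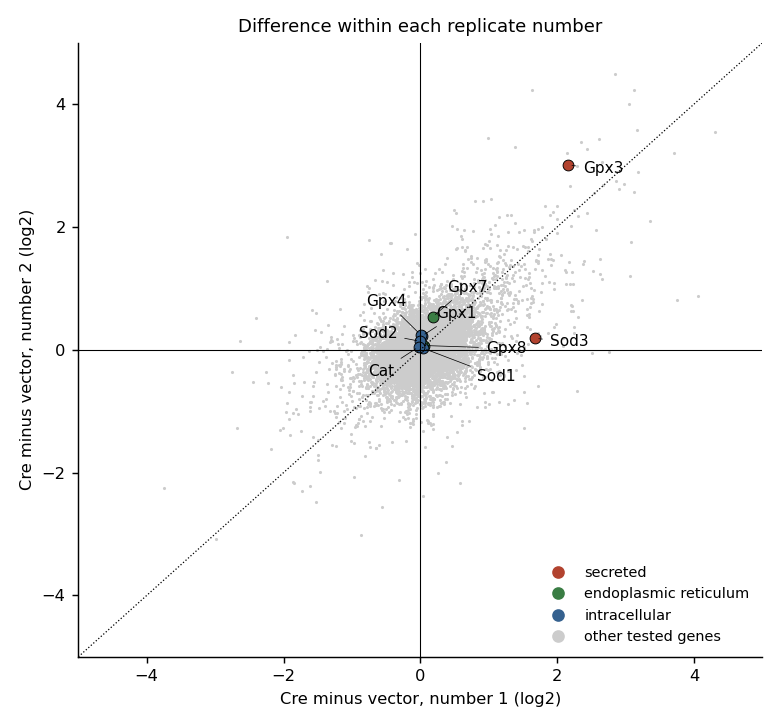
Log2 difference of Cre minus vector within number 1 (horizontal) and number 2 (vertical) for the brightest probe set of each tested gene, in grey, and of the 9 enzyme genes, in colour by place in the cell. The dotted line marks equal differences, and 1 gene lies outside the axes. Gpx3 lies at 2.16 and 3.0, Sod3 at 1.68 and 0.18, and the intracellular enzymes lie near the origin.

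Markers of the other cell types were read beside the secreted enzymes. Of the 5 endothelial markers, 4 were higher in the Cre array of both pairs, where 32.8% of the genes above the level filter were. Their summed signals were 131 and 47.6 units in vector arrays 1 and 2 and 286 and 116 in Cre arrays 1 and 2. Kdr read 75.1 and 7.6 in the vector arrays and 162 and 61.6 in the Cre arrays, and Tie1 only 9.4 and 2.2 against 13.1 and 2.6. All 5 endothelial markers lay below the level filter and none was at 0 in any array, and their part in the Gpx3 and Sod3 differences was not tested. The 4 mature adipocyte markers with a probe set summed to 425 and 1057 in the vector arrays and 685.5 and 907 in Cre arrays. Lpl made up nearly all of these sums. Adipoq, below the level filter, read 3.9 and 8.2 in the vector arrays and 13.1 and 16.7 in the Cre arrays. Lep, also below it, read 4.4 and 11.5 against 3.5 and 2.1. In that list 1 marker (Adipoq) was higher in both pairs and 1 (Lep) lower, and its part in the Gpx3 and Sod3 differences was not tested. The 6 leukocyte markers summed to 299.9 and 378 in the vector arrays and 481.5 and 417 in the Cre arrays, without overlap. Among all genes tested, 17.5% had both Cre arrays above both vector arrays. Of the leukocyte markers, 2 lay above the level filter. Csf1r read 143 and 163 in the vector arrays and 194 and 222 in the Cre arrays, higher in both pairs, and Cd68 read 92.8 and 159.5 against 163 and 147. Ptprc, below the filter, read 10.1 and 11.9 in the vector arrays and 2.9 and 4.5 in the Cre arrays. Itgam, at 3.3 to 6.5 units, was lower in both pairs only after quantile normalization. Over the list 1 marker was higher and 2 lower in both pairs, where 32.8% and 30.2% of all genes tested were. None was at 0, and the part of the leukocyte list in the Gpx3 and Sod3 differences was not tested. The markers of kidney proximal tubule, a site of Gpx3 synthesis, summed to 207 and 344 against 263 and 323, so those groups overlapped. Lrp2 and Cubn of that list lay above the filter and differed in opposite directions in both pairs. Lrp2 read 53.6 and 201 in the vector arrays and 34.3 and 101 in the Cre arrays, and Cubn 120 and 101 against 166 and 182.

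The contrast between the replicate numbers was tested, since the choice of genes did not use it. Arrays of one number were read as a pair, so they may not be independent replicates of that number. The p-values measure the spread between these arrays and not the spread between sources of the numbers, which the labels do not name. In a limma model with genotype and number, 2 of the 9 genes passed over all probe sets, 1 in each direction. Gpx1 was higher in number 2, by 0.39 ± 0.090 on the log2 scale (SE, 4 arrays; limma adjusted p = 0.0169), with 0.29 between the vector arrays and 0.49 between the Cre arrays. Cat was lower in number 2, by -0.57 ± 0.14 (limma adjusted p = 0.0239), with -0.61 and -0.54. Among all genes tested 8.46% were higher and 8.26% lower at that threshold. The second Cat probe set differed by -0.052 and did not pass (limma adjusted p = 0.868). Both calls were lost without the level filter (limma adjusted p = 0.118 for Gpx1 and 0.0697 for Cat) and without the genotype term (0.1495 and 0.150).

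Sod3 differed by -0.89 ± 0.30 between the numbers and did not pass (limma adjusted p = 0.0742). The vector arrays differed by -0.14 and the Cre arrays by -1.63, so the estimate averages unlike values. With the scaling as deposited Sod3 did pass, at -1.10 (limma adjusted p = 0.0115). The 6 remaining genes lay between -0.15 (Gpx3) and 0.29 (Gpx7) and did not pass. The 95% interval ran from -0.65 to 0.35 for Gpx3 and from -0.056 to 0.27 for Sod1.

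**Figure D4:**
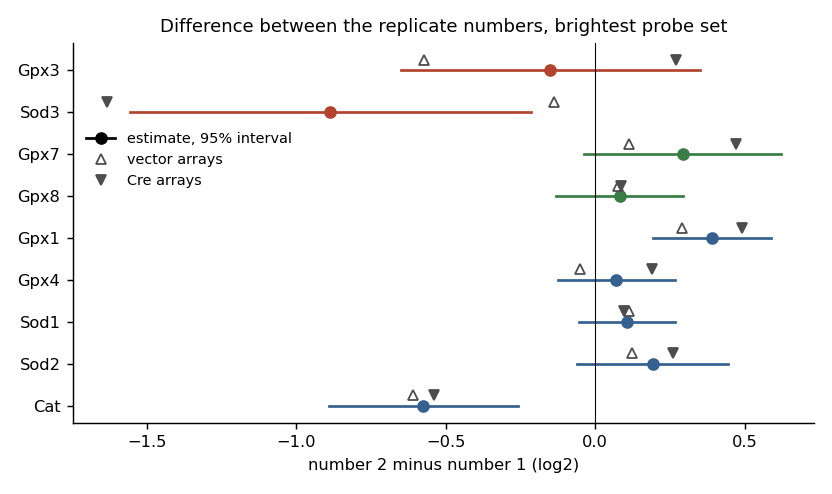
Log2 difference of number 2 minus number 1 for the brightest probe set of each gene, with the limma estimate (coloured circles) and its 95% interval (bars), and the differences between the vector arrays (open triangles) and between the Cre arrays (filled triangles). The intervals of Sod3, Gpx1 and Cat lie clear of 0, and of these Gpx1 and Cat passed after adjustment over all probe sets.

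The genes whose level over the 4 arrays was most like that of Gpx3 were found by the Euclidean distance between mean-centred log2 values, over 11078 genes. Fabp4, whose product carries fatty acids in adipocytes, came first at a distance of 0.17, with 186 and 112 signal units in vector arrays 1 and 2 and 908 and 1120 in Cre arrays 1 and 2. Kcnmb1 (0.38), a potassium channel subunit gene, Gabra4 (0.47), a GABA receptor subunit gene, and Col18a1 (0.47), the collagen XVIII gene, followed, where the median distance over all genes was 2.65. In vector arrays 1 and 2 Kcnmb1 read 18.7 and 9.3 and Gabra4 25.7 and 7.6, below the array medians of 67.2 and 50.6. Their likeness to Gpx3 thus rests on dim vector readings. Most like Sod3 were Gm30873 (0.16), the amino acid transporter gene Slc43a2 (0.28), Cysrt1 (0.28) and Rgs9 (0.37), a regulator of G protein signalling. All 4 were high in Cre array 1, as Sod3 was, with differences of 1.24 to 2.08 within number 1 and 0.068 to 0.34 within number 2. The median distance from Sod3 was 1.52. These distances rest on 4 arrays and are a description.

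Around the enzymes, 90 genes of glutathione, thioredoxin, selenium, metal and oxidant metabolism were read. Of these 83 had a probe set with 1 symbol and 70 passed the level filter. Without pairing 0 of the 70 passed over all probe sets in limma, as did 0% of all genes tested and 0.00888% of all probe sets. An unadjusted p under 0.05 was found for 2 of the 70 and for 5.07% of all genes tested. With the replicate number as a block, 4 rose and 0 fell, where 3.25% of all genes rose and 0.984% fell. The 4 were Nox4, Selenop, Hmox1 and Txnip. These lists were chosen with earlier results of this contrast known, so the counts describe them and are no independent evidence. The block has 1 residual degree of freedom, so these calls lean on the spread shared across probe sets.

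Nox4, which encodes an NADPH oxidase that releases hydrogen peroxide, read 168 and 34.4 signal units in vector arrays 1 and 2 and 421 and 230.5 in Cre arrays 1 and 2. Both Cre arrays were above both vector arrays, at a log2 difference of 1.72 ± 0.54 (SE, n = 2 against 2; limma adjusted p = 0.917, and 0.0051 with the block). The pairs gave 1.26 and 2.19, and the difference was 0.95 without vector array 2. Of the 8 tested genes of the oxidant sources it was the only one that passed in the paired model. Cyba, the partner subunit of Nox4, was 0.31 lower and Xdh, the xanthine dehydrogenase gene, 0.54 lower, and Ero1b, an oxidase of the endoplasmic reticulum, differed by 0.30. None of these 3 passed in either model.

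Selenop, which encodes the secreted protein that carries selenium between tissues, read 1073 and 374 signal units in vector arrays 1 and 2 and 3231 and 781 in Cre arrays 1 and 2. Each Cre array was above the vector array of its number, but the groups overlapped because number 1 was high in both. The log2 difference was 1.32 ± 0.73 (limma adjusted p = 0.999, and 0.00375 with the block), with 1.67 and 0.97 in the pairs. Without vector array 1 or 2 it was 1.99 or 0.65, and without Cre array 1 or 2 it was 0.30 or 2.34. Of 19 tested genes of selenoprotein synthesis and transport it was the 1 that passed with the block. Sephs2, the enzyme that makes selenophosphate for selenocysteine, differed by -0.48, and the endoplasmic reticulum selenoproteins Selenom and Selenof by 0.35 and 0.21, and none of these passed in either model. The list's median was 0.017.

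Hmox1, the inducible heme oxygenase gene and a target of NRF2, read 328 and 681 signal units in vector arrays 1 and 2 and 713 and 1704 in Cre arrays 1 and 2. The groups parted in the deposited signals but overlapped after quantile normalization. The pairs gave 1.13 and 1.26, a log2 difference of 1.19 ± 0.54 (limma adjusted p = 0.999, and 0.00361 with the block). It was 0.62 without vector array 1, 1.83 without Cre array 1 and 0.56 without Cre array 2. Among the 12 tested genes of metal and heme supply, 9 were higher in both pairs and 2 lower in both, against 32.8% and 30.2% of all genes tested. The copper transporter family gene Slc31a2 differed by 0.75, Hmox2 by 0.28 and Ccs, the copper chaperone of Sod1, by 0.19, and none of these passed in either model.

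Txnip, the inhibitor of thioredoxin, read 463 and 217 signal units in vector arrays 1 and 2 and 813 and 382 in Cre arrays 1 and 2. Both pairs were higher in Cre cells, by 0.85 and 0.71, and the groups overlapped. The mean difference was 0.78 ± 0.43 (limma adjusted p = 0.999, and 0.0467 with the block). Without vector array 1 or 2 it was 1.19 or 0.37, and without Cre array 1 or 2 it was 0.30 or 1.26. Of 15 tested peroxiredoxin and thioredoxin genes it was the 1 that passed with the block. Nxn and Txnrd3, both of the thioredoxin system, differed by -0.40 and -0.51 and Prdx4, the peroxiredoxin of the endoplasmic reticulum, by 0.14, and none of these passed in either model.

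Glutathione synthesis and recycling, which feeds the peroxidases, had 16 tested genes, and 0 passed in either model (limma). An unadjusted p under 0.05 was found for 0 of the 16 without pairing and for 5 with the block, where 5.07% and 18.4% of all genes tested had one. Their median log2 difference was -0.15, with 4 higher and 8 lower in both pairs, where 32.8% and 30.2% of all genes tested were. Gsr, the glutathione reductase gene, read 1054 and 944 signal units in vector arrays 1 and 2 and 639 and 793 in Cre arrays 1 and 2, a difference of -0.46 ± 0.25. Gclm, a subunit of the enzyme that limits glutathione synthesis, read 1722.5 and 1791 against 804 and 1766, so that only Cre array 1 was low. Its pairs gave -1.09 and -0.013. Ggt7, of the gamma-glutamyltransferase family, differed by -0.63, and Chac2, which encodes an enzyme that degrades glutathione, by 0.42. Gpx2, Gpx5 and Gpx6, the other glutathione peroxidase genes of the mouse, all lay below the level filter, between 5.7 and 81.9 signal units.

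**Figure D5:**
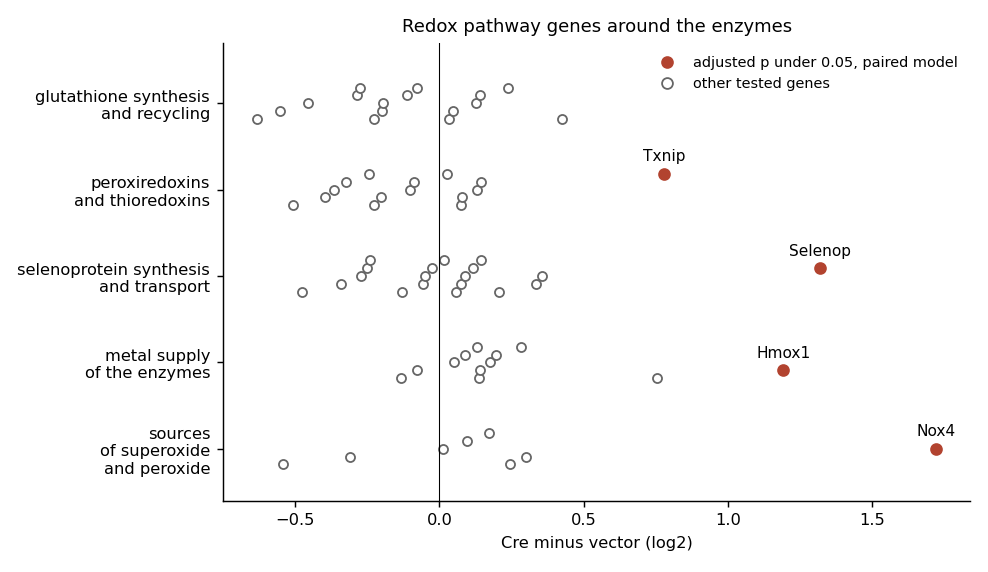
Log2 difference of Cre minus vector for the 70 tested redox pathway genes in 5 lists, with the genes that passed in the paired limma model filled and named and the others open. Nox4 (1.72), Selenop (1.32), Hmox1 (1.19) and Txnip (0.78) are the 4 named genes, and most of the open points of the glutathione list lie below 0.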

How the data were processed

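Total RNA of 4 samples was read on Affymetrix mouse arrays, 1 array per sample. The authors deposited 1 signal intensity per probe set, made with MAS5 per the submitters' processing notes (version not given in the sources used here). Each deposited array had a mean of 500 once 2% was trimmed from each end. After removing 64 control probe sets, 45037 remained: 34945 with 1 platform gene symbol, 932 with several and 9160 with none. Symbols were updated through gene IDs to RefSeq annotation of GRCm38.p6 (34741 matched). Intensities were quantile normalized and taken as log2(signal + 16), and the 22519 probe sets at or above the 50th percentile of mean level were fitted in limma 3.58.1 under R 4.3.3 (lmFit, then eBayes with trend). Benjamini-Hochberg adjustment ran over all of them at 0.05. Each gene takes the values of its brightest probe set. The model without pairing has 2 residual and 4.10 prior degrees of freedom, the paired one 1 and 9.81. The number of arrays limits the precision. The methods were tested on simulated data with independent noise of a common spread. In the simulation of genotype differences arrays of one number shared no difference, so it cannot decide between the models with and without pairing.

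The members and gene lists were chosen with earlier results of these data known. Named were all members, the 4 genes with the smallest p in each pathway list, the 4 profiles nearest to Gpx3 and to Sod3, and defining markers. Alternatives were pseudocounts of 1 and 64, no filter, the deposited scaling, the replicate block, no genotype term, and leaving out each array.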

Additional observations from a re-analysis of the deposited data

How the results depend on the processing

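For Cre against vector, 2 probe sets passed over the whole array (0.00888% of those tested). This was 1 with a pseudocount of 1, 0 without the filter on low values (limma) and 708 with the replicate block, and it ran from 7 to 28 when 1 array was left out. The 0 pathway genes called became 4 with the replicate block and stayed 0 in the other alternatives run. Between the numbers 3376 probe sets passed, against 780 without the filter and 26 without the genotype term, and the 2 enzyme genes called became 0 in both of these. Among the enzyme genes' genotype differences, Gpx3 was 2.26 at a pseudocount of 64 and Sod1 0.12 with the deposited scaling. The replicate block and the absent filter leave these differences as they are by construction. Leaving out 1 array unbalances the replicate numbers. The small differences of Gpx1, Sod1, Sod2 and Cat then fell on either side of 0, Cat between -0.29 and 0.32, while Gpx3 ran from 2.30 to 2.87, Sod3 from 0.11 to 1.75, Gpx7 from 0.12 to 0.59 and Gpx4 from 0.028 to 0.22. The pathway genes called with the block ran from 0.95 to 2.50 (Nox4), 0.30 to 2.34 (Selenop), 0.56 to 1.83 (Hmox1) and 0.30 to 1.26 (Txnip). Gclm ran from -1.12 without Cre array 2 to 0.015 without Cre array 1, against -0.55 with all arrays, since only Cre array 1 read low. Leave-one-out gave no test between the numbers, since the model then has no residual degrees of freedom. The number of arrays and the signal of dim probe sets limit all values.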
